A study of Mus musculus with 28 samples.

Results

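The comparison described here is between the prefrontal cortex (PFC) of adult mice with 1 disrupted copy of Myt1l and that of their wild-type counterparts. Libraries were taken by their labels, adult PFC with genotype Het or WT, which selected 12 of the 28 RNA sequencing libraries of the series: 6 heterozygous (Het) and 6 wild-type (WT), each with 3 females and 3 males. The other 16 libraries are from embryonic cortex, labelled E14 for the embryonic day. They are heterozygous, wild-type or homozygous mutant (Hom). The mutant animals come from a MYT1L knockout line, whose allele, strain background and exact adult age the labels do not give. Neither a transgene nor a treatment is named in either group. Each library has an identifier of its own, and nothing in the labels says that replicates came from separate animals, so p-values measure the spread between these libraries, which may in part be technical. The stated aim of the study was to learn how chromatin and the transcriptome change when MYT1L is lost.

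MYT1L is a zinc-finger transcription factor of the MYT1 family that is made in neurons from the time they leave the cell cycle and stays on in the adult brain. It binds DNA at a short core motif, AAGTTT, and is best known as a repressor that recruits the SIN3 and HDAC corepressor complex, holding down non-neuronal and progenitor programmes while a neuron matures. People who carry 1 defective copy of MYT1L have a neurodevelopmental syndrome, which makes the heterozygous adult cortex the relevant genotype. The prefrontal cortex itself is the frontal association cortex, built of layered glutamatergic projection neurons, GABAergic interneurons, glia and vessels.

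Myt1l RNA was lower in each Het library than in each WT library. Levels are given as CPM (counts scaled to a common library total), recovered from the deposited log2 values. WT libraries measured 146 CPM at the lowest, 156 CPM at the median and 168 CPM at the highest, and Het libraries 105, 116 and 121 CPM. Het retained 72.3% of the WT mean, and an exact two-sided permutation test over the 12 libraries gave p = 0.00216, the smallest that 924 arrangements allow. In the fit across all genes (limma with sex as covariate, on log2(CPM + 0.5), where fold changes of low genes are understated), the change was -0.47 (SE 0.06, adjusted p = 1.4e-04). Myt1l was the 1 gene called in males (-0.56, adjusted p = 0.00204), and it was also called in females (-0.38, adjusted p = 0.00917). The table holds 1 value per gene, so what the mutant allele still transcribes is not shown by it. The 2 relatives of the family were near the lower limit of expression: Myt1 lay between 0.587 and 1.897 CPM in WT and between 0.929 and 2.53 CPM in Het (0.37, SE 0.24, adjusted p = 0.508). St18 lay between 1.56 and 3.55 CPM in WT and between 1.41 and 2.65 CPM in Het (-0.08, SE 0.20, adjusted p = 0.894). Neither passed the test.

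The bases upstream of the start were examined for the core motif, because the labelled factor binds it. The windows are the 250 bases before an annotated start, from RefSeq on GRCm38.p6, with the motif in capitals where it occurs on either strand (AAGTTT or AAACTT). Myt1l, the targeted gene (first listed start, chr12:29528134-29528383, plus strand), and Syt3, the called gene with the next lowest p that has an entry (chr7:44383876-44384125, plus strand), hold no match. Fosl2, a called gene that rose, holds 1 (chr5:32136222-32136471, plus strand), and it was chosen after this had been seen. In the GENCODE annotation Fosl2 spans 32135801 to 32157842, so its window, upstream of a RefSeq start, lies within the gene.
Myt1l: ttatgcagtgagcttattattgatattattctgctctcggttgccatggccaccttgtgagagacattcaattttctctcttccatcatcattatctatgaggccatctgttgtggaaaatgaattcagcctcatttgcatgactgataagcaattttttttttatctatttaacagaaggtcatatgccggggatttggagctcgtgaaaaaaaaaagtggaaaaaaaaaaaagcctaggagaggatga
Syt3: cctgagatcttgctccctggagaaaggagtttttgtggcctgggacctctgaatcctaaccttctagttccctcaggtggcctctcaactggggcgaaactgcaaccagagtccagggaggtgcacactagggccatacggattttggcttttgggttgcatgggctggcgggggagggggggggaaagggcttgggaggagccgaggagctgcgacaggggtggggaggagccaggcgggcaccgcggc
Fosl2: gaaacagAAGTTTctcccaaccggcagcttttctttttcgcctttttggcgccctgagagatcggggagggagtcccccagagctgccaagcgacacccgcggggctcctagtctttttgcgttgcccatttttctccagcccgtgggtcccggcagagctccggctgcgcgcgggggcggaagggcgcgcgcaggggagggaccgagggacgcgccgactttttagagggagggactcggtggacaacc
Over the called genes with an entry, 2 of 16 that rose (12.5%, Fosl2 and Serinc2) and 1 of 24 that fell (4.17%, Dyrk1b) hold the motif in such a window. The share over 10165 tested genes with an entry is 11.6%, and 12.8% of 32851 windows of this length hold it. The share among risen genes is therefore near that of genes in general. A match is a description of letters, not of binding, and windows further from the start were not examined.

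The labels held up against marker genes, and 4 Het libraries stood apart in other ways. Each of 4 Y-linked genes was above its floor in 6 of 6 libraries labelled male, and 0 libraries labelled female had one. Recovered totals ran from 19601294 to 21275162, but they follow the authors' scaling, so sequencing depth is unknown. The first principal component, 23.8% of the variance, separated the Het females (20.1 to 22.5) from the other libraries, of which WT F06 was the nearest at 6.90 and the rest lay below 0. Libraries are named here by genotype, sex and number. A list of 11 genes known from olfactory bulb and anterior olfactory nucleus, tissue that borders the frontal cortex, was summed in each library: WT libraries lay between 476 and 681 CPM, while Het F04, Het F07 and Het M08 reached 805, 1035 and 834 CPM. The remaining Het libraries were at 469 to 613 CPM. No member of the list was at 0 in any library, and 4 of the 11 are also in another list used here (Calb2 and Sp8 among interneuron genes, Slc17a6 among presynaptic and Eomes among progenitor genes).

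**Figure D1:**
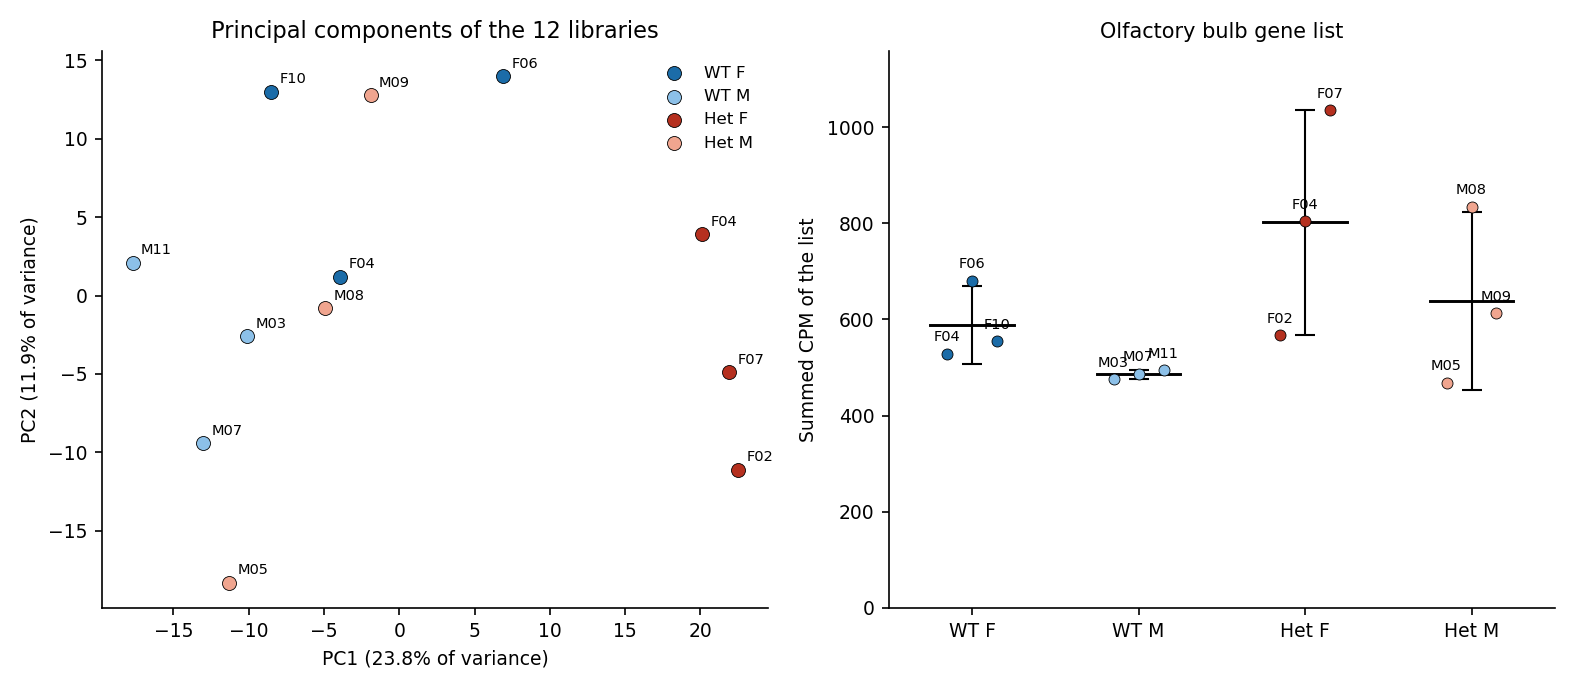
The left panel plots the 12 adult libraries on the first 2 principal components, coloured by genotype and sex; the right panel plots the summed CPM of the olfactory bulb list, with the mean and SD of each group (n = 3). Het females lie alone on the right of PC1, at 20.1 to 22.5, and Het F04, Het F07 and Het M08 lie highest in the list, at 805 to 1035 CPM.

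Of 12870 genes tested, 52 were called at an adjusted p under 0.05, 23 higher and 29 lower in Het. That is 0.404% of the genes, 0.179% higher and 0.225% lower. Changes were small: 15 of the 52 exceeded 0.5 on the log2 scale and 1, Socs3, exceeded 1, and the median size over the called genes was 0.42 against 0.10 over the genes tested. Without adjustment, 1749 genes (13.6%) had a p under 0.05. Each Het library lay above each WT library for 6 of the genes called higher, and below for 6 of those called lower. Over all genes tested these shares are 0.35% and 0.319%. The call and the separation use the same values, so nothing is read from it. Since the tissue is bulk, fewer cells of a type and less RNA per cell cannot be told apart in any of these values.

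The call count rests on few libraries. It fell to 3 when WT F04, WT M11, Het F04 or Het F07 was left out, to 5 without WT F10 and to 7 without Het F02, and it rose to 97 without WT M07, 123 without Het M05 and 127 without Het M09. Myt1l, Nrep and Syt3 were called in each of the 12 fits that left out 1 library. With the summed olfactory list as covariate, or without the 3 libraries highest in it, only 1 gene was called, Myt1l. Its SE was 0.071 and 0.077 in these fits, against 0.057 in the reported fit. Changes of Socs3 (-1.07 and -1.10, against -1.03) and Sox11 (0.52 and 0.54, against 0.44) were no smaller. Those of Tshz1 (0.53 and 0.45, against 0.82) and Btg1 (0.26 and 0.29, against 0.45) were smaller. The count therefore does not show how many calls depended on olfactory genes. Voom called 3 genes and moderation without trend and robust settings, which changes both at once, none, against 1749 genes at an unadjusted p under 0.05 in the reported fit, so the gene by gene account below is of this 1 fit. No called gene changed direction under any alternative run.

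**Figure D2:**
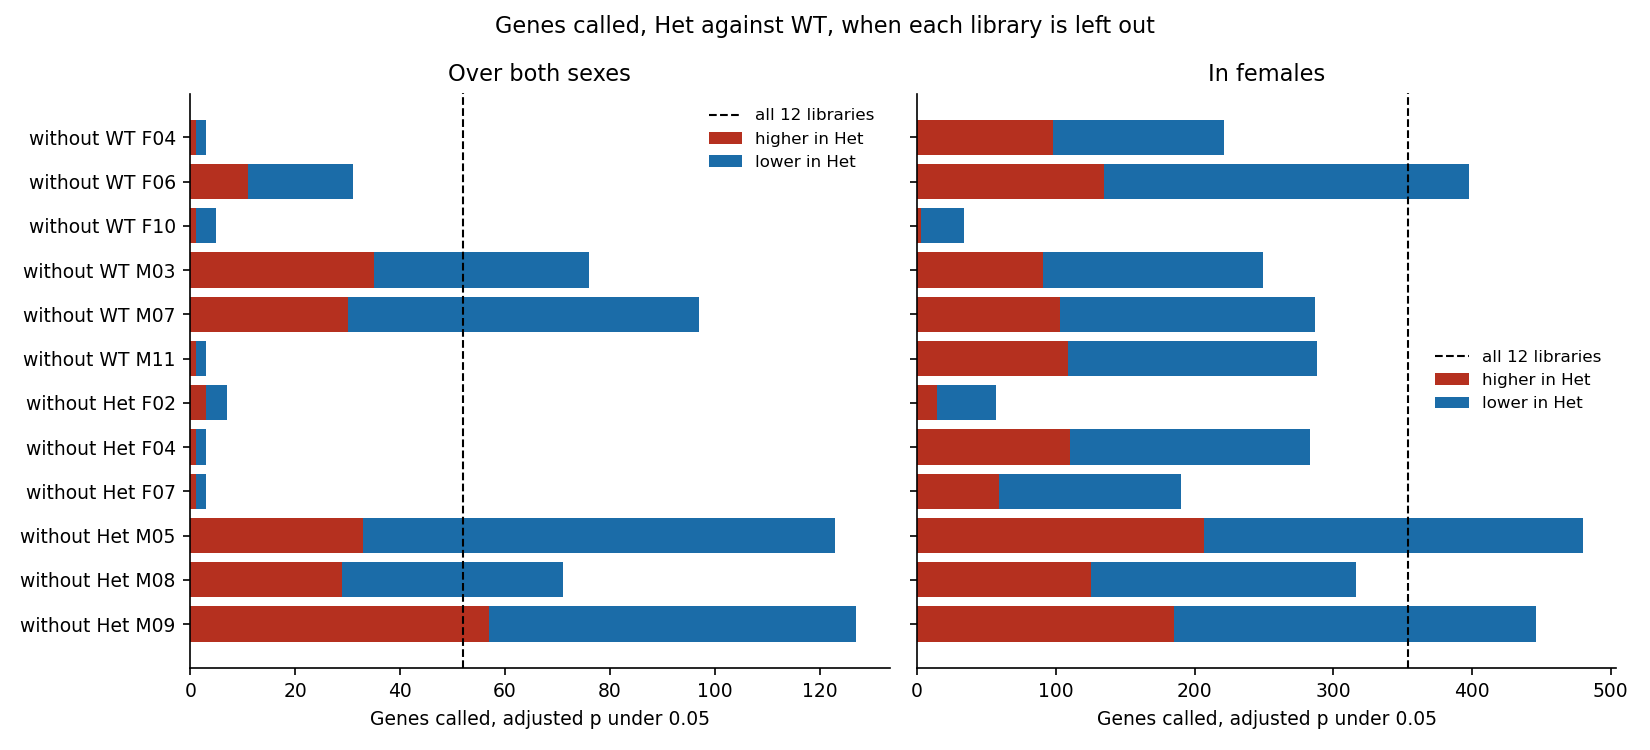
Bars give the number of genes called higher (red) and lower (blue) in Het when each library named on the left is left out, over both sexes and in females, and the dashed line gives the number with 12 libraries (52 and 354). The count over both sexes runs from 3 to 127, and that in females from 34 without WT F10 to 480 without Het M05.

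Genes linked to immature and developing neurons were among the rises. Nrep, a small protein of growing and regenerating neurons, lay between 64.1 and 88.1 CPM in WT (median 82.3) and between 92.4 and 117 CPM in Het (median 108). The groups did not overlap, the log2 change was 0.39 (SE 0.06, adjusted p = 0.00813), and it was nearly the same in females (0.39) and males (0.40). Sox11, a SoxC transcription factor of newborn neurons, ran from 27.4 to 39.2 CPM in WT (median 34.4) and from 36.6 to 53.1 CPM in Het (median 47.1), a change of 0.44 (SE 0.09, adjusted p = 0.0426). Here 1 Het library, M08, lay within the WT range. Of 26 tested members of the immature neuron list, Nrep and Sox11 were the 2 called higher (7.69%, against 0.179% of genes), and 20 of 26 had a change above 0, with a median of 0.05 against 0.01 over the genes tested. Doublecortin, Dcx, a microtubule protein of migrating neurons, was at 4.64 to 22.3 CPM in Het and 5.69 to 11.7 CPM in WT (0.45, adjusted p = 0.239). Marcksl1, an actin regulator of the same list, had the opposite sign (-0.37, adjusted p = 0.0507). With the olfactory list as covariate, Nrep had 0.35 and Sox11 0.52, each at an adjusted p of 0.0858. The median of the immature neuron list was then 0.006, and it was 0.023 without the 3 libraries highest in the olfactory list. Unrelated lists also leaned to 1 side in the reported fit. Above 0 were 49 of 52 ribosomal and 52 of 67 oxidative phosphorylation genes, but 2 of 18 glycolysis genes.

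Fosl2, Tshz1, Runx1t1, Auts2 and Brd2 were also called higher. They are given together as nuclear proteins, a grouping made after the calls were seen and not tested. Fosl2, a subunit of the activity-regulated AP-1 factor (chromosome 5, 32135801 to 32157842, GRCm38), went from 10.7 to 15.7 CPM in WT (median 14.03) to 16.8 to 25.1 CPM in Het (median 19.8). The groups were apart, with the 3 Het females highest at 21.7 to 25.1 CPM (0.59, SE 0.12, adjusted p = 0.0283). Tshz1, a zinc-finger factor, gave the largest rise (0.82, SE 0.15, adjusted p = 0.0283), from a WT median of 9.69 CPM to 17.1 CPM in Het. Its 3 highest libraries were Het F07 (26.7 CPM), Het F04 (25.1 CPM) and Het M08 (17.99 CPM), those highest in the olfactory list, and without them the change was 0.45 (adjusted p = 0.393). Tshz1, Btg1 and Fkbp14 were the 3 of 23 genes called higher with this order (13.0%), which 172 of the genes tested showed (1.34%). A call as higher itself favours Het libraries at the top, so nothing is read from the difference between these shares. Runx1t1, a corepressor that binds HDAC complexes, rose by 0.36 (SE 0.07), from 31.4 to 37.4 CPM in WT to 37.0 to 47.4 CPM in Het, with Het M08 just inside the WT range. Auts2, a nuclear protein of a neurodevelopmental syndrome, rose by 0.40, and Brd2, a bromodomain protein that reads acetylated histones, by 0.27. Prr12 (0.70), Stox2 (0.46), Btg1, an antiproliferative cofactor (0.45, but 0.26 at an adjusted p of 0.245 with the olfactory list as covariate and 0.29 at an adjusted p of 0.406 without the 3 libraries highest in it), and Zfp385b (0.29) were also higher, with Lbh, a transcription cofactor (0.47), whose lowest Het library, M05 at 17.7 CPM, lay below the WT mean of 18.2 CPM.

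Ccn4 and Fkbp14 were called higher with no overlap between the groups. Ccn4, a secreted matrix protein of Wnt signalling, ran from 6.03 to 10.0 CPM in WT and from 11.2 to 17.4 CPM in Het, without overlap (0.64, SE 0.14, adjusted p = 0.0426). Fkbp14, a proline isomerase of the endoplasmic reticulum, was likewise separated, at 3.36 to 4.94 CPM against 5.61 to 8.77 CPM (0.64, SE 0.15, adjusted p = 0.0478), and, like Myt1l, Nrep and Ubald1, it had a larger change in males (0.75) than in females (0.53). Ndst1, an enzyme of heparan sulphate synthesis, rose by 0.54, Serinc2 by 0.50 and Ppp1r16b, a regulatory subunit of protein phosphatase 1, by 0.43. Tmem121b rose by 0.39, Gid4, the substrate receptor of a ubiquitin ligase, by 0.34, Prune2 by 0.32, Tspan5, a tetraspanin, by 0.28, and Yod1, a deubiquitinase, by 0.27.

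**Figure D3:**
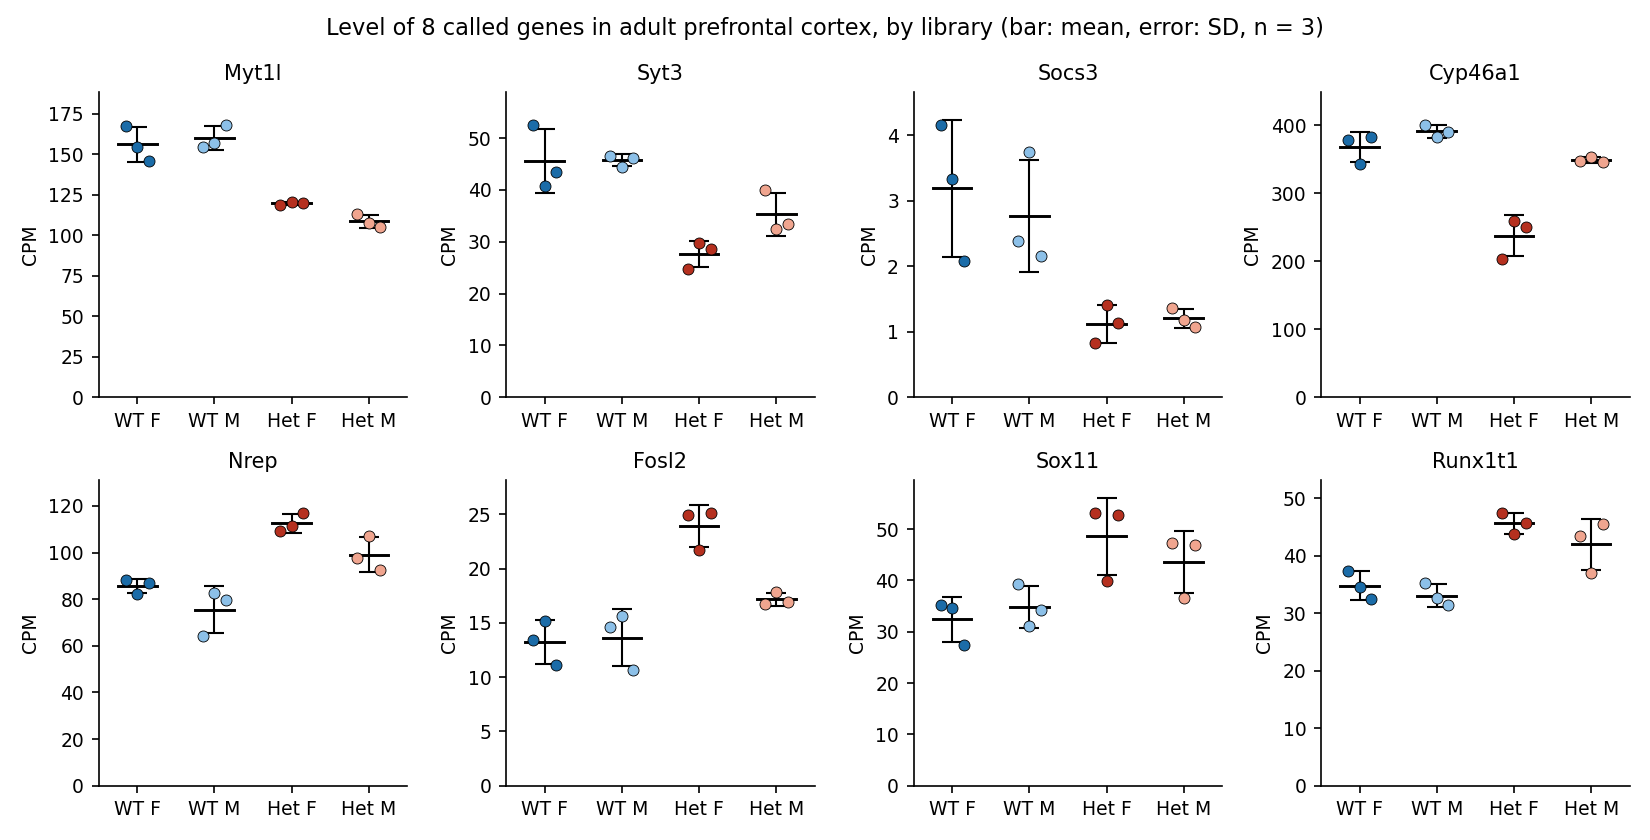
Each panel plots the CPM of 1 called gene in the 12 libraries, by genotype and sex, with the mean and SD of each group (n = 3); the upper row fell in Het and the lower row rose. Myt1l, Syt3, Socs3, Nrep and Fosl2 show no overlap between the 6 WT and the 6 Het libraries, whereas in Cyp46a1 the Het males (346 to 353 CPM) overlap WT.

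Syt3, Grin1 and Rac3 were among the genes called lower. Over both sexes, 0 of 37 presynaptic, 0 of 36 postsynaptic and 1 of 27 glutamate receptor genes (Grin1) were called lower, against 0.225% of genes. At that share hardly any call falls in lists of this size, so these counts do not show whether synaptic genes fell more widely. The median changes of the 3 lists were 0.007, 0.037 and 0.013, against 0.013 over the genes tested. Syt3, a calcium sensor of the synaptotagmin family (chromosome 7, 44384102 to 44400187), measured 40.7 to 52.6 CPM in WT (median 45.3) and 24.8 to 40.0 CPM in Het (median 31.0), without overlap. Its change of -0.54 (SE 0.09, adjusted p = 0.00685) had the lowest p after Myt1l. Grin1, the subunit that every NMDA receptor contains, fell by 0.38 on the log2 scale (SE 0.08, adjusted p = 0.0439), from a WT median of 64.2 CPM to 46.0 CPM. WT F06 at 43.2 CPM lay inside the Het range of 34.9 to 58.4 CPM. Ap2a1, a subunit of the clathrin adaptor of endocytosis (-0.34), Hgs, which sorts endosomal cargo (-0.33), and Flot1, a membrane raft protein (-0.31), belong to membrane traffic. Rac3, a GTPase of neurites, ran from 11.3 to 16.2 CPM in WT and from 8.02 to 11.0 CPM in Het (-0.57, SE 0.12). Rap1gap, which switches off the GTPase Rap1, changed by -0.45, Map1s, a microtubule protein, by -0.37, and Ncdn, a neurite outgrowth protein, by -0.27.

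Socs3 gave the largest fall. It is the feedback inhibitor of cytokine signalling through JAK and STAT, on chromosome 11 from 117966079 to 117970047, and it was weakly expressed, at 2.08 to 4.16 CPM in WT (median 2.85) and 0.829 to 1.41 CPM in Het (median 1.15). The groups did not overlap in either sex, and the change was -1.03 (SE 0.20, adjusted p = 0.0283). Among genes of metabolism, Cyp46a1, the cholesterol 24-hydroxylase that starts the export of cholesterol from neurons (-0.40), and Gaa, the lysosomal glucosidase (-0.24), were lower. For Cyp46a1, WT lay between 343 and 400 CPM and the Het females between 203 and 259 CPM, while the Het males were at 346 to 353 CPM. Gtf3a, the factor for 5S ribosomal RNA genes, fell by 0.73 (SE 0.13), and Gars, a glycyl-tRNA synthetase, by 0.39. Kinases, ubiquitin enzymes and related proteins followed: Dyrk1b (-0.69), Ube2s (-0.54), Ubac1 (-0.50), Kctd10 (-0.46), Nek6 (-0.41) and Oaz2, which restrains polyamine synthesis (-0.32). Also lower were 2210016F16Rik (-0.83), Zfp575 (-0.81), Uap1l1 (-0.50), Pradc1 (-0.41) and Ubald1 (-0.31).

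Hbb-bt, a beta globin of red blood cells, was the 1 member of the erythroid list called lower, from 42.5 to 71.0 CPM in WT to 32.8 to 51.1 CPM in Het (-0.54, SE 0.11, adjusted p = 0.0441). The 5 tested members had changes below 0, with a median of -0.36, among them Hbb-bs (-0.37), Hba-a2 (-0.32), Alas2 (-0.36) and Hba-a1 (-0.30). The summed list ran from 333 to 576 CPM in WT and from 318 to 503 CPM in Het. The globin copies are near-identical in sequence, and the sources used here do not say how reads were split between them. Whether blood left in the vessels differed between samples was not tested.

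Most of the 39 lists of pathway and cell type genes showed no called gene over both sexes: 34 had none, and the 5 others had 1 or 2. Only 0.404% of genes were called, at which most lists of this size hold none. A list without a call is therefore not shown to be unchanged. The lists with a call were the MYT1 family (Myt1l), immature neuron, immediate early (Fosl2), glutamate receptors (Grin1) and erythroid. Of 13 corepressor partners of MYT1L, none passed, with Rcor1, a scaffold of the REST complex, at 0.42 (adjusted p = 0.135) and Ncor1 at 0.27 (adjusted p = 0.136). Among 37 presynaptic genes, Syp, a vesicle membrane protein, had -0.22 (adjusted p = 0.0798), Syt7 0.29 (adjusted p = 0.0889) and Syt5 -0.18 (adjusted p = 0.0995). In the 18 upper-layer genes, Cux2 had 0.43 and Inhba, an activin subunit that rises with activity, 0.71, both at adjusted p = 0.0507. For Inhba each Het library (31.4 to 37.6 CPM) lay above each WT library (13.99 to 28.3 CPM). Epha7, a guidance receptor, was separated in the other direction, at 64.5 to 77.4 CPM in Het and 82.9 to 94.8 CPM in WT (-0.26, adjusted p = 0.0531), as was the kinesin Kif3c (-0.27, adjusted p = 0.0564). In the deep-layer list Syt6 had 0.58 (adjusted p = 0.0765) and Bcl11b 0.31 (adjusted p = 0.124). Vgf, a neuropeptide precursor, had -0.64 (adjusted p = 0.0761), Sst -0.16 (adjusted p = 0.155), Wnt10a -0.52 (adjusted p = 0.065) and the calcium channel subunit Cacnb1 -0.30 (adjusted p = 0.0851).

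Over both sexes, cell type markers gave no call for astrocytes, oligodendrocytes and their precursors, microglia, endothelium, pericytes, meninges, choroid plexus, striatum, interneurons or olfactory bulb. With 0.404% of genes called, this does not show that these markers were unchanged. The olfactory bulb list had the highest median of the 39 lists, 0.72, with 0 of 9 tested members called. For Th, the enzyme of dopamine synthesis, WT libraries ran from 8.71 to 31.6 CPM and Het from 8.96 to 59.9 CPM (1.04, SE 0.45, adjusted p = 0.36). Calb2, calretinin, was at 218 CPM in Het F04, 302 CPM in Het F07 and 222 CPM in Het M08, against 57.3 to 156 CPM in the other 9 libraries. Sp8 (0.96), Trh (0.96), Cdhr1 (0.72) and Doc2g (0.46) showed the same 3 libraries highest, and within WT the highest library for each of these was F06. Meis2 (0.20), Synpr (0.14) and Slc17a6 (0.19), which cortex also expresses, varied less. How far tissue from beyond the PFC contributed to the calls was not tested. The covariate and the left-out libraries above also changed the SE, so their counts do not measure it.

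More genes passed the test in females than in males, while the difference between the sexes passed it for no gene. Taken from a fit with 4 means (genotype by sex), Het females differed from WT females in 354 genes, 2.75% of those tested, 143 higher (1.11%) and 211 lower (1.64%), with 168 above 0.5 on the log2 scale and 20 above 1. Het males differed from WT males in 1 gene, Myt1l (0.00777%), with 558 genes (4.34%) at an unadjusted p under 0.05 against 2357 (18.3%) in females. The test of the difference itself, the interaction of genotype and sex, called 0 genes (0%), with 1092 (8.49%) at an unadjusted p under 0.05, so a difference between the sexes is not shown for any single gene. Voom also called 0 interactions, and array weights called 12. Of the 52 genes called over both sexes, 48 were called in females too, 48 had the larger change in females and 52 had the same sign in both. Their median size was 0.56 in females and 0.29 in males, against 0.15 and 0.10 over the genes tested. The called genes and the 2 single-sex changes come from the same libraries, so this describes where the calls arose and does not support them.

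The grouping of libraries overlaps with sex. The 3 Het females share the identifier prefix 14309 with WT F06, WT F10, WT M11 and Het M09, the other males are of prefix 14308 and WT F04 is of prefix 14111. What the prefix stands for the labels do not say. With it as a block, 19 genes were called over both sexes, and 185 within the 7 libraries of prefix 14309. The count in females was 221 without WT F04, which leaves a single prefix among them. It was 34 without WT F10, 57 without Het F02 and 332 with the olfactory list as covariate. Without Het F04, Het F07 and Het M08, Het F02 is the only Het female left, so female results of that fit rest on it. A fit on the 6 female libraries alone called 340.

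**Figure D4:**
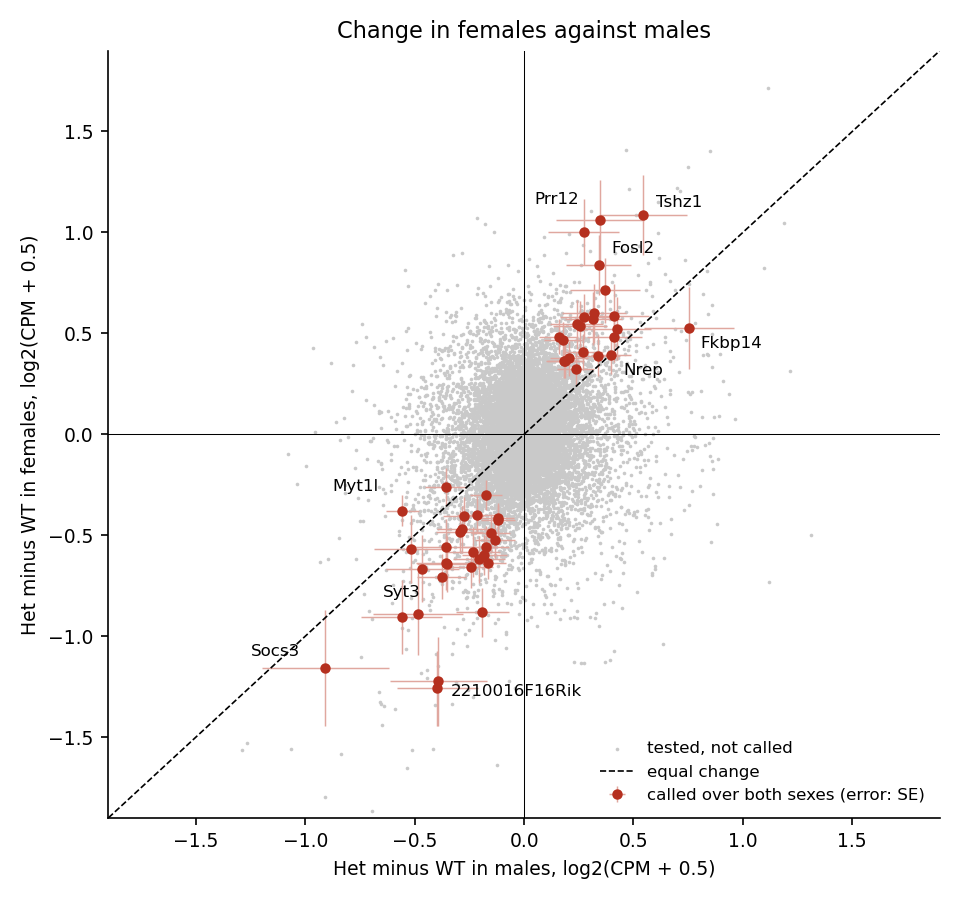
Each point is a gene, with its Het minus WT change in males on the horizontal axis and in females on the vertical axis, in log2(CPM + 0.5); red points are the 52 genes called over both sexes, with SE, and the dashed line marks equal change. Of these, 48 lie further from 0 in females than in males, and 1 gene that was not called lies outside the axes.

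Immediate early genes, which neurons switch on within minutes of activity, were the list with most calls in females. Of 27 members, 7 were higher and 1 lower (25.9% and 3.70%, against 1.11% and 1.64% of genes), and the median change was 0.28 in females and -0.04 in males, against 0.01 over the genes tested in either sex. Fosl2 had 0.84 in females and 0.34 in males. Ier5 was at 18.04, 20.3 and 22.1 CPM in WT females and 26.8, 32.6 and 34.2 CPM in Het females (0.61, adjusted p = 0.00706), against 0.15 in males. Bdnf, the neurotrophin released with activity, was at 92.4, 94.4 and 95.2 CPM in WT females and 121, 130 and 143 CPM in Het females (0.47, adjusted p = 0.00425). In males it was at 105, 123 and 129 CPM in WT and 109, 110 and 115 CPM in Het (-0.09), so the WT males overlapped the Het females. Egr3 (0.45), Nr4a1 (0.41), Btg2 (0.47) and Homer1 (0.48), a scaffold with an activity-induced short form, were the other members called higher in females.

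Jun went the other way. It encodes the main partner of FOS proteins in AP-1, and measured 41.0, 45.9 and 58.05 CPM in WT females and 24.2, 26.99 and 28.99 CPM in Het females (-0.83, adjusted p = 3.6e-04). Males lay between 34.9 and 37.5 CPM in both genotypes (-0.02). The interaction was -0.81 for Jun (95% interval -1.15 to -0.48) and 0.56 for Bdnf (0.32 to 0.81), each at an adjusted p of 0.237, among the lowest of the list but not called. Other classical members were not called: Fos had 0.37 in females (adjusted p = 0.0579) and Arc 0.40 (adjusted p = 0.163), while Npas4 had 0.28 (adjusted p = 0.376). The count in females was 5 higher and 1 lower with the olfactory list as covariate. Without the 3 libraries highest in that list, Het F02 is the only Het female left. In that fit Fosl2 had 0.90, Bdnf 0.60 and Jun -0.97, while Nr4a1 had 0.28 and Btg2 0.31. The median of the list in females was 0.16 there, against 0.28 in the reported fit. Whether handling or the time to dissection differed between the groups was not tested.

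**Figure D5:**
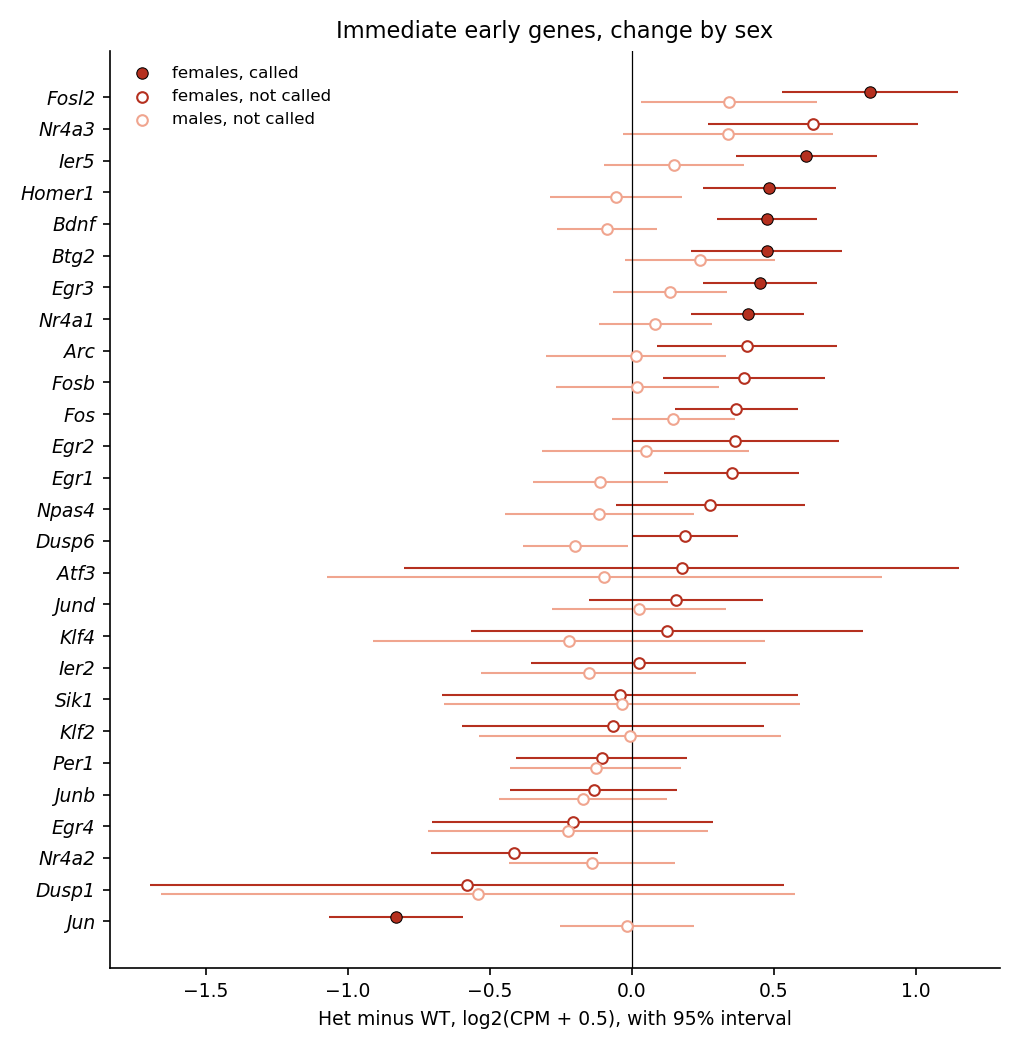
Points give the Het minus WT change of the 27 immediate early genes in females (dark) and males (light), in log2(CPM + 0.5) with 95% intervals, filled where called. Fosl2, Ier5, Homer1, Bdnf, Btg2, Egr3 and Nr4a1 are filled above 0 in females, Jun is filled below 0 at -0.83, and no male point is filled.

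Ion channels, synaptic proteins and layer genes were also called in females, and the direction differed from gene to gene. Of 8 sodium channel genes, 3 were higher (37.5%, against 1.11% of genes): the pore subunits Scn8a (0.50) and Scn3a (0.47) and the auxiliary subunit Scn2b, at 597, 672 and 678 CPM in WT females and 760, 780 and 887 CPM in Het females (0.32, adjusted p = 0.0311). None of the 3 was called without Het F04, Het F07 and Het M08, the libraries highest in the olfactory list, which leaves 1 Het female (adjusted p = 0.0558 for Scn2b, 0.126 for Scn8a and 0.304 for Scn3a). With the GC content and length correction 1 was called, Scn2b, while Scn8a had 0.32 (adjusted p = 0.0981). Ank3, which anchors channels at the axon initial segment, had 0.42. In the glutamate receptor list Grin2b was higher (0.44) and Grin1 lower (-0.47). Vamp2, the vesicle SNARE of transmitter release, was at 1035, 1223 and 1285 CPM in WT females and 723, 796 and 858 CPM in Het females (-0.57, adjusted p = 9.5e-04), against -0.06 in males. Syp was lower (-0.31) and Syt7 higher (0.47). The upper-layer list had 3 of 18 higher (16.7%, against 1.11% of genes), namely Cux2 (0.58), Pou3f3 (0.50) and Inhba (0.92), and 1 lower (5.56%, against 1.64%), Calb1 (-0.41). With the GC content and length correction 0 were higher and 1 lower, with Cux2 at 0.43 (adjusted p = 0.056), Inhba at 0.82 (adjusted p = 0.0629) and Pou3f3 at 0.38 (adjusted p = 0.0976). That correction also took Grin1 to -0.41 (adjusted p = 0.056), Grin2b to 0.20 (adjusted p = 0.281) and Ank3 to 0.26 (adjusted p = 0.115). Of 13 corepressor partners, 2 were higher in females (against 1.11% of genes), Rcor1 (0.68) and Ncor1 (0.44), at 0.17 and 0.09 in males. The median of that list in females was 0.004, with 7 of 13 above 0, and Sap30 had -0.66 (adjusted p = 0.16). Without the 3 libraries named above, Vamp2, Cux2 and Pou3f3 were still called, while Grin1 (adjusted p = 0.0639), Grin2b (0.14), Syp (0.23), Syt7 (0.0637), Ank3 (0.12), Rcor1 (0.161), Ncor1 (0.318), Inhba (0.292) and Calb1 (0.155) were not.

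Among glial and vessel markers, calls in females were lower in Het. Gpr37l1, an astrocyte receptor, was at 360, 366 and 426 CPM in WT females and 242, 250 and 294 CPM in Het females (-0.55, adjusted p = 0.00402), and Acsbg1 had -0.30. They were 2 of 18 astrocyte genes (11.1%, against 1.64% of genes; 1, Gpr37l1, without the 3 libraries highest in the olfactory list), and the summed astrocyte list lay between 6497 and 6995 CPM in WT females and between 5702 and 6146 CPM in Het females, without overlap. In males the sums overlapped, at 6072 to 6599 CPM in WT and 6303 to 6900 CPM in Het. Tmem119, a microglial surface protein, was at 41.8, 51.5 and 54.6 CPM in WT females and 27.3, 35.8 and 40.3 CPM in Het females (-0.52, adjusted p = 0.0453), the 1 call among 16 microglial genes, and it was not called with the GC content and length correction (adjusted p = 0.186). The summed microglial list ran from 1057 to 1164 CPM in WT females and from 975.7 to 1049 CPM in Het females, again without overlap. Such separation in females was not particular to glia. Sums of the immature neuron, glutamate receptor, sodium channel, immediate early, progenitor and corepressor lists were also separated, higher in Het females. Those of the heat shock list were separated and lower. Nothing is therefore read from the separation of the glial sums. The deep-layer sums were higher in Het females (745.5 to 784.0 CPM, against 677.0 to 727.6 CPM in WT females). The striatum sums were lower in Het females (402.3 to 447.5 CPM, against 459.1 to 500.8 CPM). Eng, an endothelial receptor of the TGF-beta family, was at 10.7, 12.9 and 19.6 CPM in WT females and 6.96, 7.15 and 7.86 CPM in Het females (-0.89, adjusted p = 0.0123; 0.18 without the 3 libraries), the 1 call among 14 endothelial genes. The endothelial sums overlapped, at 1157 to 1489 CPM and 1167 to 1277 CPM. The part of cell composition in the changes in females was not tested. Of stress genes, Atf4, the effector of the integrated stress response, was higher in Het females (0.56, adjusted p = 0.00435) with -0.18 in males, and the small heat shock gene Hspb1 was lower (-1.27) at 1.37 to 7.57 CPM across the female libraries. Pdyn (-0.49) and Chga (-0.33), a peptide precursor and a granule protein, were lower in Het females.

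The adult changes were set beside those of embryonic cortex, where Het and WT libraries of the same line are in a separate table that was normalized apart. For Het against WT, 724 of 12429 embryonic genes were called (5.83%), in a fit that also held the Hom libraries. Het and WT libraries alone, as in the adult fit, gave 379. Of the 52 genes called in the adult, 46 were tested in the embryo and 25 (54.35%) had the same sign, against 54.4% of 11581 genes tested in both tables, so the share is that of genes in general. Btg1 was the 1 gene called in both, at 0.45 in the adult, where its call was lost with the olfactory list as covariate (0.26, adjusted p = 0.245), and 0.27 in the embryo (adjusted p = 0.047). Nrep had 0.16 (adjusted p = 0.0701) and Sox11 0.16 (adjusted p = 0.22) in the embryo, and Syt3 0.25 (adjusted p = 0.73), opposite to its adult sign. Myt1l had -0.39 (adjusted p = 0.125).

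Within genotype and sex, the genes whose level moved most closely with Myt1l over the 12 libraries were Zfp747 (Pearson's r = 0.96), Aste1 (0.95), Bora (0.92), Ap1g1 (0.91) and Dclre1a (0.91). These are the 5 highest among 12870 genes, given as a description, and the 12 residuals share the scaling of their libraries. None of these genes followed Myt1l between genotypes: their Het changes lay between -0.17 and 0.16, and none passed the test.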

How the data were processed

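RNA was extracted from mouse PFC with a Zymo kit and sequenced from SMARTer Ultra Low libraries, per the labels' protocols. The submitters' processing notes name Trimmomatic, STAR, Bowtie2, HTSeq and build mm10; the sources used here give no version, role or strand setting. The authors deposited log2 CPM values after upper-quartile scaling and RUVr, which removes variation estimated from the residuals of a first fit. The prior count of 2 and the scaling were read from the values: 100% inverted to whole numbers (tolerance 0.01). These are adjusted numbers, not reads, and a step is worth at most 0.0495 CPM. One direction among the 12 libraries held almost no variance (singular value 0.085 against 12.5 for the next, over 8680 genes), so tests on the table count too many degrees of freedom.

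Of 14104 genes listed, 14103 matched GENCODE vM21 on GRCm38, and 12870 that reached 1 CPM in 6 or more libraries were tested with limma 3.58.1 in R 4.3.3 (lmFit, eBayes with trend and robust) on log2(CPM + 0.5), with genotype and sex. Changes by sex and the interaction came from 4 group means. P-values were adjusted by Benjamini-Hochberg, and a gene is called under 0.05. The script was tested on simulated data. Members, lists and tests were chosen with earlier results of these data known. Named genes are the MYT1 family, up to 15 genes called higher and 15 called lower, by size of change, whose 6 Het libraries do not straddle the WT mean, and as many as 4 genes per list by lowest p. The other called genes, list members named for a call in females, and Fos, Arc and Npas4 were named after their values were seen; some genes that these rules select are not reported here. The lists of cytoskeleton, postsynaptic, GABA receptor, potassium and calcium channel, monoamine receptor, axon guidance, Notch, Wnt, progenitor, ribosomal, oxidative phosphorylation, mitochondrial, glycolysis, cholesterol, heat shock and muscle genes had no call over both sexes. As 0.404% of all genes were called, these lists are not shown to be unchanged. Figures were drawn with matplotlib 3.10.9.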

Additional observations from a re-analysis of the deposited data

Results flagged for a closer look

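Within each genotype, a library was marked when its gap to the nearest other library exceeded 0.625 of the group's range. Of 298 groups of 6 libraries tested, 14 were marked, and chance alone marks about 1 in 20. The number marked is near that share, so the marks are listed as a description and nothing is read from them.

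WT F06 was marked as the highest WT library for 4 genes of the olfactory bulb list: Th at 31.6 CPM (the others 8.71 to 12.2), Doc2g at 25.03 CPM (7.79 to 12.0), Sp8 at 13.3 CPM (5.84 to 8.32) and Calb2 at 156 CPM (63.4 to 98.1). It was also highest in the summed meningeal list, at 200.3 CPM (146.6 to 158.6), and in the summed postsynaptic list, at 21950 CPM (20480 to 20950).

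Het M05 was lowest in the summed list of nuclear oxidative phosphorylation genes, at 28480 CPM (34920 to 37970), and in that of the corepressor partners, at 581.2 CPM (626.7 to 648.2). It was highest for Alas2, an enzyme of haem synthesis, at 11.2 CPM (4.77 to 6.83).

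WT M03 was highest for St18, at 3.55 CPM (1.56 to 2.08), and lowest for Nrep, at 64.1 CPM (79.9 to 88.1). Calb1 stood at 371.9 CPM in Het M09 (248.4 to 282.4), Epha7 at 94.8 CPM in WT F10 (82.9 to 86.5) and Ubald1 at 96.9 CPM in Het F07 (115.5 to 126.6).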

How the results depend on the processing

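Over both sexes 52 genes were called (23 higher, 29 lower). The count was 45 to 71 with other pseudocounts, filters, the deposited values and median centring (20 higher, 51 lower), and 41 with a GC content and length correction (25 higher, 16 lower). It was 86 with median-of-ratios scaling (24 higher, 62 lower), 167 with array weights, 19 with the identifier prefix as a block, 17 with the direction removed by RUVr as covariate, 3 with voom, 2 without the sex covariate and 0 without trend and robust moderation, where Myt1l had an adjusted p of 0.0627 with a change of -0.47. Leaving out each library gave 3 to 127. With the GC content and length correction, genes no longer called included Grin1 (limma adjusted p = 0.0626), Rac3 (0.0565), Auts2 (0.0671) and Hbb-bt (0.0978). Sox11 (0.0501), Dyrk1b (0.071), Zfp575 (0.0582) and Stox2 (0.0582) were also among them. Spearman's correlation of the change with GC content over the genes tested was -0.172. Alternatives chosen after seeing the data gave 185 within prefix 14309 and 1 each with the olfactory list as covariate and without the 3 libraries highest in it. In females (354), the count was 729 with array weights, 221 with the RUVr direction, 209 with voom, 57 without trend and robust moderation, 129 without those 3 libraries and 34 to 480 with each library left out. In males (1), it was 2 with array weights, 2 from male libraries alone, 0 without trend and robust moderation, 0 without the 3 libraries and 0 to 1 with each left out (0 without WT M11). The interaction count (0) was 12 with array weights, 1 with the GC content and length correction and 0 to 13 with each left out (13 without WT F06, 2 without Het F07). The embryonic count (724) was 379 from Het and WT libraries alone. The causes were not tested. None of the 52 genes was called under every alternative, since 1 alternative called none, and no sign changed.

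Replicate numbers are shared by WT F04 and Het F04 and by WT M07 and Het F07 only, whose deviations correlated by 0.003 and -0.049, so they share a number and are no pairs. With the number as a replicate block, 18 genes were called over both sexes, 308 in females, 1 in males and 0 for the interaction, and 736 in the embryo. Sequencing depth is unknown, so no limit from counting is given.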
